A study of Mus musculus with 6 samples.

Results

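The solute carrier genes of wild-type mouse regulatory T cells (Treg) were examined, that is, the genes whose symbol begins with Slc followed by a family number. Of 24421 genes in the table, 373 carried such a symbol, and 160 of these had an FPKM (fragments per kilobase of transcript scaled to the mapped fragments of the library) of at least 1 in at least 2 of the 6 libraries. These 160 are the members described here, and they come from 43 of the 49 families in the table. Of the other 213, 98 were listed at 0 in every library and 115 had some value above 0, of which 11 reached 1 FPKM in a single library. The members were chosen by that level alone, without regard to group, so being above it is not a result. Those nearest the threshold were Slc22a2, Slc23a1 and Slc35f5 on the inside, with a second-highest value of 1.03, 1.04 and 1.05 FPKM, and Slc7a10, Slc25a33 and Slc37a2 on the outside, with 0.952, 0.951 and 0.890. Slc25a15 and Slc22a2 passed only through the libraries with iBP, so the rule itself favours a difference for that pair.

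Wild-type Treg from spleen and lymph nodes were profiled by SMART-seq, which copies poly(A) RNA into cDNA and amplifies it by PCR. There were 3 groups of 2 libraries: stimulated with iBP, stimulated, and unstimulated. The study's design text describes iBP as an inhibitor of H2AK119ub1, the ubiquitin mark that Polycomb repressive complex 1 places on histone H2A. The labels give no stimulus, duration, dose, age, strain or sex, and no group received iBP without stimulation. The Kdm2b-deficient Treg that the design text names are not analysed here.

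Solute carriers are membrane proteins that move amino acids, sugars, nucleotides, metals, ions and lipids across the plasma membrane and the membranes of organelles, most of them by facilitated diffusion or by coupling to an ion gradient. A T cell that is activated draws more glucose, glutamine and large neutral amino acids from its surroundings, and transporters such as GLUT1, ASCT2 and the CD98 heterodimers are known as parts of that switch. Treg are known to rely less on glycolysis than effector T cells and to use lactate from their surroundings through monocarboxylate transporters.

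The labelled cell type was checked first. Foxp3, the Treg lineage factor, read 122 and 124 FPKM with iBP, 121 and 101 in stimulated and 35.5 and 47.1 in unstimulated libraries, and Cd3e, a component of the T-cell receptor complex, read 68.6 and 83.3 FPKM with iBP, 67.3 and 69 in stimulated and 57.6 and 67.2 in unstimulated libraries. The 9 T-cell and Treg markers together took 0.491% and 0.498% of summed FPKM with iBP. Their share was 0.488% and 0.513% in stimulated and 0.363% and 0.363% in unstimulated libraries, higher in all 4 stimulated libraries. In stimulated against unstimulated, 3 of the 9 passed the test, all higher (Foxp3, Il2ra and Tnfrsf18). Cd3g, Cd4 and Ikzf2 had negative differences there (-0.076, -0.19 and -0.19), and the other markers had positive ones. All 8 B-cell markers were also present, at 0.205% and 0.218% with iBP, 0.243% and 0.233% in stimulated and 0.227% and 0.236% in unstimulated libraries. Of 7 dendritic cell markers, the MHC class II genes H2-Aa and Cd74, which B cells also express, were abundant (Cd74 2841 and 2671 FPKM with iBP, 2788 and 3317 in stimulated and 3604 and 2435 in unstimulated libraries) and the other 5 were at most 5.14 FPKM. The 7 together took 1.38% and 1.36% with iBP, 1.35% and 1.47% in stimulated and 1.53% and 1.26% in unstimulated libraries. Pancreatic acinar genes took 0.0787% in stimulated replicate 2 against 0.0187% to 0.0287% in the other 5, with Prss1 listed at 0 throughout. Erythroid and platelet genes took 0.176% and 0.0841% with iBP and 0.174% to 0.205% in the other 4. The low share of iBP replicate 2 was mostly that of Hba-a2, at 570 FPKM in iBP replicate 1 and 120 in replicate 2. In the same order Hba-a1 read 9.29 and 123 FPKM, Hbb-bs 28.5 and 24, and Hbb-bt 21.3 and 25.8. Over all libraries, myeloid genes took 0.0181% to 0.028%, mostly Lyz2 at 65.5 to 99.5 FPKM. CD8 genes took 0.00224% to 0.00383%. Stromal and endothelial genes took 0.00391% to 0.00704%, mostly Pecam1 at 14.4 to 26.8 FPKM. Unstimulated replicate 1 stood apart from the rest on the first principal component of all genes tested (score -37.9, with unstimulated replicate 2 at -9.32 and both stimulated groups at 10.5 to 13.3). Some differences from unstimulated libraries are also given without it. Among solute carriers known from other cells, the erythrocyte anion exchanger Slc4a1 (0 to 1.1 FPKM), the macrophage metal transporter Slc11a1 (0 to 0.387 FPKM) and the iron exporter Slc40a1 (0 to 0.726 FPKM) were below the threshold. The erythroid carriers Slc25a37 and Slc25a38 were above it, and Slc25a38 is described below with the mitochondrial carriers. Slc14a1, the urea transporter known from erythrocytes, was a member at 5.79 and 8.65 FPKM with iBP, 5.4 and 10.2 in stimulated and 4.41 and 4.53 in unstimulated libraries, above the unstimulated pair in all 4 stimulated libraries with no pass of the test (0.63 ± 0.31 for stimulated against unstimulated, adjusted p = 0.509). The part that other cells play in the values that follow was not tested, and in such bulk libraries fewer cells of a type and less RNA per cell cannot be told apart.

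As a whole the solute carrier genes took a narrow share of each library: 0.623% and 0.609% of summed FPKM with iBP, 0.619% and 0.654% in stimulated and 0.599% and 0.664% in unstimulated libraries. Their mean level over the 6 libraries ran from 0.527 to 212 FPKM with a median of 5.2, against a median of 8.42 for all 10436 genes at or above the same threshold. The 10 most abundant members held 45.6% of the members' summed mean FPKM, and 77 members averaged under 5 FPKM. Mitochondrial carriers were the largest class in genes and in level, with 30 of 47 rows above the threshold and a sum of 661 to 747 FPKM per library. Amino acid and peptide carriers followed at 432 to 470.0 FPKM. At the other end, carriers of lipids, choline and organic ions had 12 of 63 rows above the threshold. It was met by 160 of 373 Slc rows and by 10436 of 24421 genes in the table, which are similar shares. Families Slc13, Slc32, Slc34, Slc40, Slc47 and Slc51, which hold sodium-coupled carboxylate, vesicular inhibitory amino acid, phosphate, iron, organic cation and steroid carriers, had none. Among the members, 5 are not transporters by what their genes are known to encode: Slc9a3r1 and Slc9a3r2 (scaffold proteins), Slc4a1ap (a nuclear and cytoplasmic adaptor protein), Slc7a6os (a gene on the strand opposite Slc7a6) and Slc2a4rg-ps (a pseudogene).

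**Figure D1:**
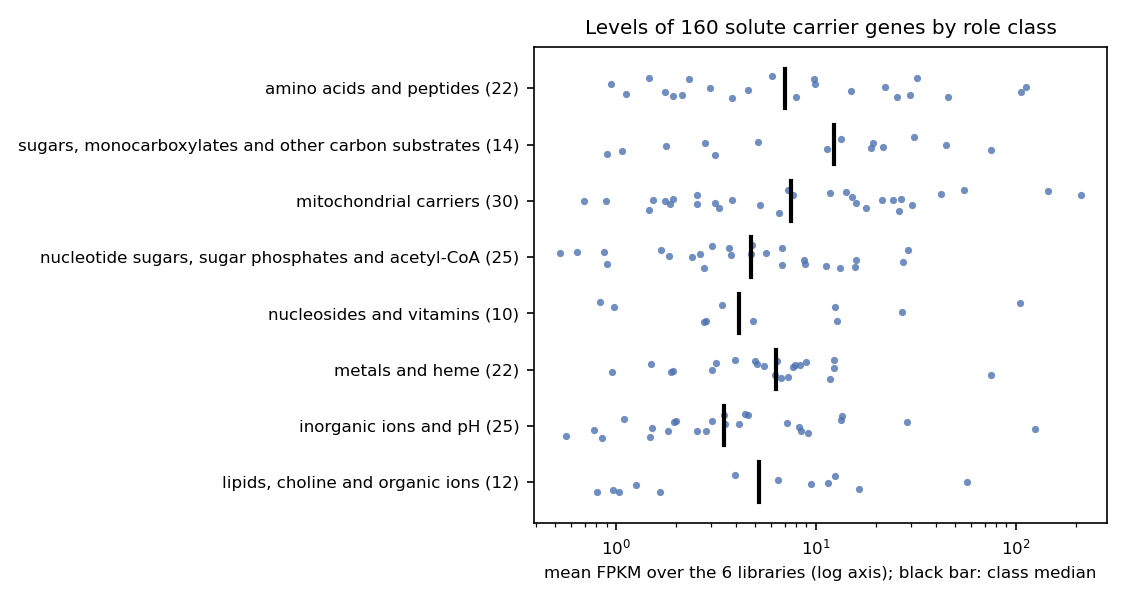
Mean FPKM of each of the 160 members over the 6 libraries (log axis), by role class, with the number of members in brackets and the class median as a black bar. Medians lie between 3.5 FPKM for inorganic ions and pH and 12.4 FPKM for sugars, monocarboxylates and other carbon substrates, and single genes such as Slc25a5, at 212 FPKM, stand far above them.

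The carriers of sugars and monocarboxylates held the member that passed the test and the one that came closest to it after that. Slc16a3, which encodes MCT4, a monocarboxylate transporter known for exporting lactate from glycolytic cells, read 26.7 and 22 FPKM with iBP, 42.2 and 38.8 in stimulated and 51.2 and 88.3 in unstimulated libraries. The iBP libraries were the lowest and the unstimulated ones the highest, and none of the 3 groups overlapped, although the unstimulated pair differed widely between themselves. The group means were 24.3 ± 3.29, 40.5 ± 2.4 and 69.8 ± 26.2 FPKM in the same order (SD, n = 2 libraries each). With iBP it fell by 1.44 ± 0.22 against unstimulated on the log2(FPKM + 1) scale (SE; 95% interval -1.92 to -0.95; limma, adjusted p = 0.00643 over all genes tested), lower in 2 of 2 iBP libraries. That made 1 of 160 members called in this comparison, 0.625%, where 1.75% of all genes tested were called (1.03% higher and 0.728% lower). The difference was -0.72 ± 0.22 for stimulated against unstimulated (adjusted p = 0.194) and -0.72 ± 0.22 for iBP against stimulated (adjusted p = 0.998), and these comparisons share libraries with each other. The call with iBP ended without iBP replicate 2 (log2 -1.30, adjusted p = 0.0796), with no filter on low values (0.202) and with no variance trend (0.163). Without unstimulated replicate 1, stimulated against unstimulated also passed (log2 -1.11, adjusted p = 0.0266), and without unstimulated replicate 2 it was -0.33 (0.436).

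Slc2a1, which encodes GLUT1, the glucose transporter that activated T cells place on their surface, read 78.4 and 90.5 FPKM with iBP, 80.8 and 95.7 in stimulated and 58.7 and 50.8 in unstimulated libraries. Both stimulated groups lay above the unstimulated libraries with no overlap, and they overlapped each other. The difference was 0.68 ± 0.15 for stimulated against unstimulated (95% interval 0.36 to 0.998) and 0.62 ± 0.15 for iBP against unstimulated (0.30 to 0.94), with adjusted p = 0.0501 and 0.0638, just short of the threshold of 0.05. For iBP against stimulated it was -0.061 ± 0.15 (-0.38 to 0.26). The first of these values crossed the threshold with a minimum FPKM of 5 (adjusted p = 0.0274), after rescaling to TPM (0.0490), after quantile normalization (0.0446) and with robust variance moderation (0.0331), and was 0.342 without stimulated replicate 2. Without unstimulated replicate 1 the difference was 0.78 (adjusted p = 0.0873).

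The promoter sequences of these 2 genes are shown because they are the members nearest a call and differ in direction, and both are known as targets of hypoxia-inducible factor 1. The sequences are RefSeq's on GRCm38.p6, plus strand, from 250 to 10 bases before the start annotated there, with the pentamers ACGTG and GCGTG (the core of a hypoxia response element, searched on both strands) in capitals. In another annotation, GENCODE M21, Slc16a3 starts at base 120948480, before its window, and Slc2a1 at base 119108711, within its window and across its ACGTG. The windows are therefore wholly upstream only by the RefSeq starts.
Slc16a3, chr11:120948817-120949057: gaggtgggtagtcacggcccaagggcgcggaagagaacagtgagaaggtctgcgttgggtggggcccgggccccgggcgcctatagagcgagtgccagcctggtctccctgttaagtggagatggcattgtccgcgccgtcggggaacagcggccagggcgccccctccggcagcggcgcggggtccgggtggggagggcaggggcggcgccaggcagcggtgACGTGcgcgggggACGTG
Slc2a1, chr4:119108495-119108735: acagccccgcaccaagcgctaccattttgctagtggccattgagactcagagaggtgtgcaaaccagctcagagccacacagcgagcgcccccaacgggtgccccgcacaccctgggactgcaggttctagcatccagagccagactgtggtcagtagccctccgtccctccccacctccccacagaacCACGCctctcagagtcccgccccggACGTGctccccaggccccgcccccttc
In the Slc16a3 window ACGTG occurred 2 times, starting 27 and 14 bases before the start, and GCGTG 0 times. The Slc2a1 window held 1 ACGTG, 36 bases before the start, and 1 GCGTG on the other strand, 61 bases before it. Windows of the same length held ACGTG for 23.1% of the 121 members with a RefSeq promoter and 16% of all 27025 genes in that table, GCGTG for 43.8% and 27.3%, and CACGTG, the MYC E-box, which contains ACGTG, for 11.6% and 5.75%. The median GC content of those windows was 61.4% for members and 51.9% for all genes, so the 2 sets differ in base composition as well, and a match describes letters, not binding.

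Slc16a1 encodes MCT1, which carries lactate and pyruvate in either direction, and read 36.4 and 25 FPKM with iBP, 35.5 and 30.4 in stimulated and 25.1 and 33.3 in unstimulated libraries, with overlap between all groups. The ratio of Slc16a3 to Slc16a1 was 0.732 and 0.880 with iBP, 1.19 and 1.28 in stimulated and 2.04 and 2.65 in unstimulated libraries. MCT4 transcript was the less abundant of the pair per length in both iBP libraries and the more abundant in the other 4. Slc2a3, which encodes the high-affinity glucose transporter GLUT3, read 14.3 and 21.7 FPKM with iBP, 19.6 and 18.8 in stimulated and 24.2 and 18 in unstimulated libraries. Its level did not separate the groups, and the ratio of Slc2a1 to Slc2a3 was 5.49 and 4.16 with iBP, 4.12 and 5.1 in stimulated and 2.42 and 2.82 in unstimulated libraries. These ratios were chosen after their values were seen, and with 2 libraries a group an exact two-sided permutation test can give no p below 0.333.

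**Figure D2:**
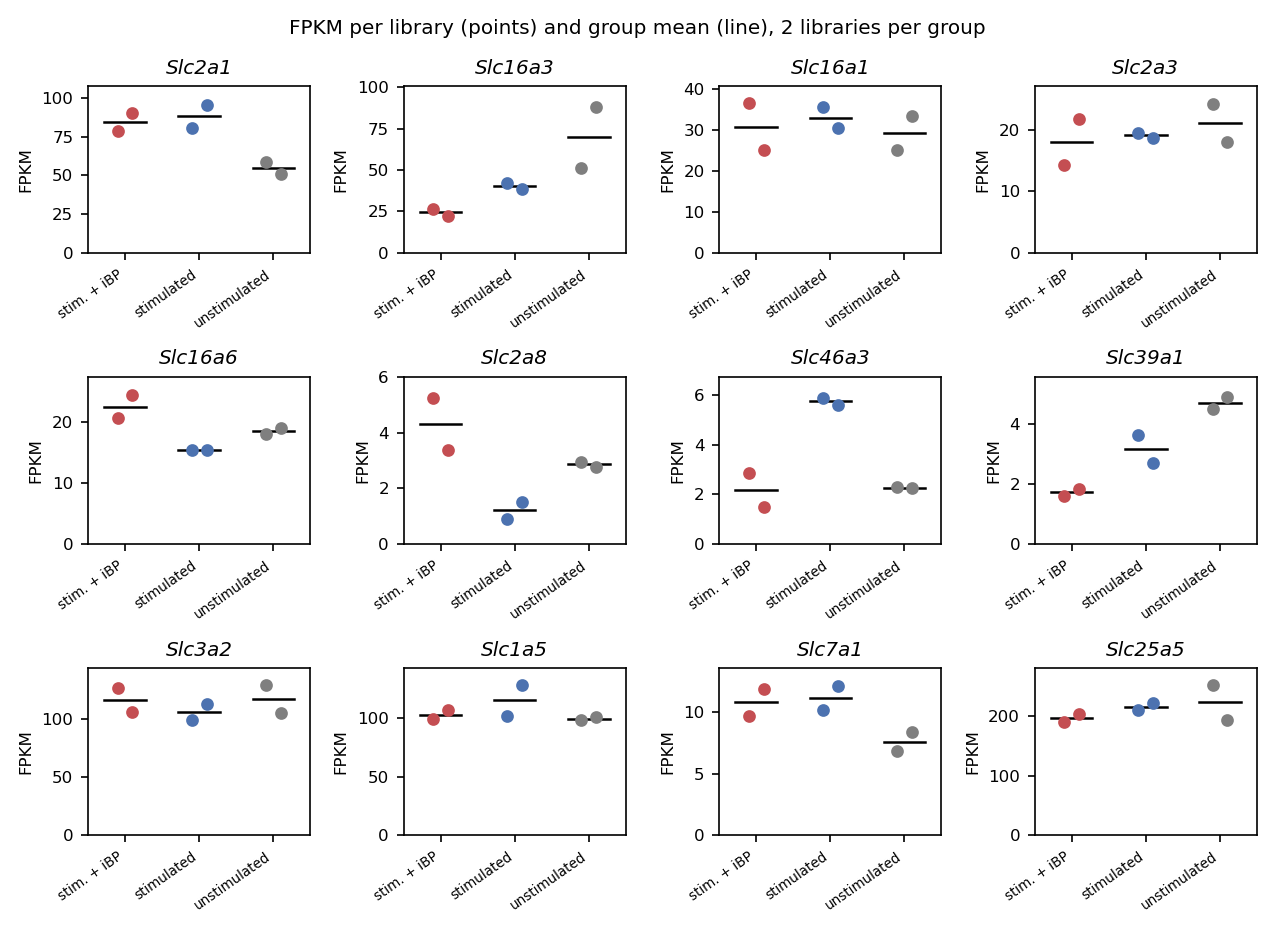
FPKM of selected members in each library (points) with the group mean (line), for stimulated with iBP, stimulated and unstimulated Treg, each axis starting at 0. The groups of Slc16a3 and of Slc39a1 lie at 3 separate levels, both stimulated groups of Slc2a1 lie above the unstimulated one, and the groups of Slc3a2, Slc16a1 and Slc2a3 overlap.

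**Figure D3:**
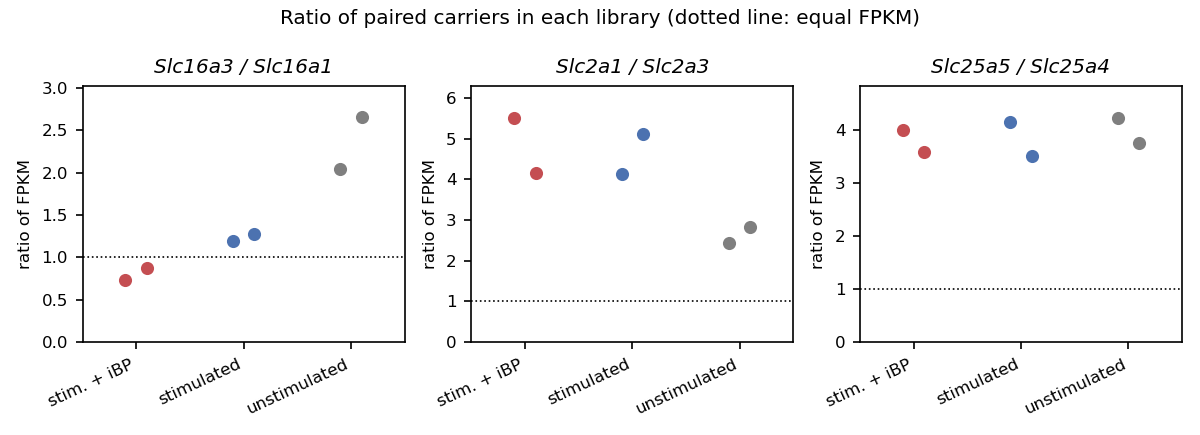
Ratio of FPKM between 2 carriers of the same substrate in each library, with a dotted line at 1. Slc16a3 over Slc16a1 is 0.732 and 0.880 with iBP and 2.04 and 2.65 in unstimulated libraries, whereas Slc25a5 over Slc25a4 stays between 3.52 and 4.24.

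Slc2a8, which encodes GLUT8, a hexose transporter of intracellular membranes, was low in stimulated libraries: it read 5.24 and 3.38 FPKM with iBP, 0.898 and 1.5 in stimulated and 2.93 and 2.78 in unstimulated libraries. It had the smallest unadjusted p of any member for iBP against stimulated, with a difference of 1.26 ± 0.33 (unadjusted p = 0.00262, adjusted p = 0.962), and stimulated against unstimulated differed by -0.82 ± 0.33 (unadjusted p = 0.0291). Slc16a6, another member of the monocarboxylate transporter family, read 20.6 and 24.5 FPKM with iBP, 15.4 and 15.4 in stimulated and 18.1 and 19 in unstimulated libraries, both iBP libraries being above the other 4 (0.52 ± 0.18 against stimulated, unadjusted p = 0.0143). About 21.5% of its exonic bases lie under exons of Amz2 on the opposite strand, and whether the libraries keep strand is not given. Slc5a3, the sodium-coupled myo-inositol transporter, read 9.86 and 11.4 FPKM in stimulated libraries and 14.2 and 20.4 in unstimulated ones (-0.64 ± 0.23, unadjusted p = 0.0184). Slc50a1, a sugar efflux carrier of the Golgi, spanned 16.7 to 24.6 FPKM. Over the 14 members of the class, 4 had a positive difference in stimulated against unstimulated libraries and the median was -0.22, while 49.7% of all genes tested were positive with a median of -0.0024. The count was 5 of 14 in iBP against stimulated and 7 of 14 in iBP against unstimulated, with 44.2% and 45.6% of all genes positive. The 14 include the pseudogene Slc2a4rg-ps, since classes follow the family number.

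The most abundant amino acid carriers, Slc3a2 and Slc1a5, differed little between groups, while the median level of the class was 7.0 FPKM. Slc3a2 encodes CD98hc, the heavy chain that brings light-chain amino acid exchangers to the surface, and read 127 and 106 FPKM with iBP, 98.7 and 112 in stimulated and 129 and 105 in unstimulated libraries. Slc1a5 encodes ASCT2, a sodium-dependent glutamine exchanger, and read 99.3 and 107 FPKM with iBP, 102 and 129 in stimulated and 98.3 and 101 in unstimulated libraries. For both genes the groups overlapped in every comparison apart from Slc1a5 in stimulated against unstimulated libraries (0.20 ± 0.14, 95% interval -0.10 to 0.50). Slc7a5, the LAT1 light chain that imports leucine and other large neutral amino acids in activated T cells, was low by comparison: 5.47 and 4.54 FPKM with iBP, 5.58 and 6.32 in stimulated and 8.44 and 5.96 in unstimulated libraries. The CD98hc light chains among the members, Slc7a5, Slc7a6 and Slc7a7, summed to 36.2 and 29.9 FPKM with iBP, 38.7 and 33.2 in stimulated and 31.4 and 34.8 in unstimulated libraries, well under Slc3a2. Most of that sum was Slc7a6, which encodes y+LAT2, an exchanger of cationic for neutral amino acids, at 20.4 to 31.2 FPKM. Slc7a11, the cystine and glutamate exchanger, was below the threshold at 0 to 0.0618 FPKM.

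Slc7a1, which encodes CAT1, the main importer of arginine and lysine, read 9.69 and 11.9 FPKM with iBP, 10.2 and 12.1 in stimulated and 6.8 and 8.38 in unstimulated libraries. Both stimulated groups were above the unstimulated libraries with no overlap, at 0.50 ± 0.23 for stimulated (unadjusted p = 0.0521) and 0.46 ± 0.23 for iBP (unadjusted p = 0.0711) against unstimulated. The system A transporter genes Slc38a2 and Slc38a1, which import small neutral amino acids with sodium, spanned 36.7 to 50.3 FPKM and 29.5 to 37.1 FPKM over all libraries. Slc6a6, the taurine transporter, spanned 8.02 to 12.4 FPKM. None of those 3 had a difference above 0.27 in size in any comparison. Slc38a10, a putative amino acid carrier, read 24 and 25.9 FPKM with iBP and 32.4 and 32.7 in stimulated libraries (-0.37 ± 0.16, unadjusted p = 0.0428). Slc15a3, a lysosomal histidine and peptide transporter, read 2.05 and 1.39 FPKM with iBP, 3.13 and 3.51 in stimulated and 3.31 and 4.35 in unstimulated libraries, with the iBP libraries below all others (-0.68 ± 0.31 against stimulated, unadjusted p = 0.0519), but 28.1% of its exonic bases overlap Tmem132a on the other strand. Of the 22 amino acid and peptide members, 12 were positive in stimulated against unstimulated libraries (median 0.054) and 8 in iBP against stimulated (median -0.075, with 44.2% of all genes positive).

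Mitochondrial carriers of the Slc25 family, which exchange nucleotides, phosphate and metabolites across the inner membrane, held the most abundant member, Slc25a5, which encodes the ADP/ATP translocase ANT2. It read 190.1 and 204 FPKM with iBP, 210.5 and 222 in stimulated and 253 and 194 in unstimulated libraries. Slc25a3, the phosphate carrier, read 140.4 and 135 FPKM with iBP, 141 and 146 in stimulated and 157 and 155 in unstimulated libraries, and Slc25a4, the ADP/ATP translocase ANT1, spanned 47.5 to 63.1 FPKM. For Slc25a5 the iBP libraries were below the stimulated ones with no overlap (-0.13 ± 0.13) and the unstimulated pair spanned nearly the whole range, Slc25a4 overlapped between groups, and for Slc25a3 both stimulated groups lay below the unstimulated libraries by small amounts (-0.12 ± 0.11 and -0.18 ± 0.11). Slc25a5 and Slc25a4 are close paralogs, and Slc25a5 is known to have processed pseudogenes, so reads may be shared in ways the sources do not describe.

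Less abundant Slc25 genes showed larger differences that missed the adjusted threshold. Slc25a22, a glutamate carrier, read 9.67 and 7.35 FPKM in stimulated libraries and 4.39 and 4.71 in unstimulated ones (0.77 ± 0.26, unadjusted p = 0.0121). Slc25a30 read 3.07 and 3.58 FPKM with iBP, 1.69 and 2.45 in stimulated and 4.07 and 4.05 in unstimulated libraries, lowest in stimulated libraries. Slc25a46, which is known to act on the outer membrane in mitochondrial dynamics rather than as an inner-membrane carrier, read 12.5 and 11.1 FPKM with iBP and 16.6 and 16 in stimulated libraries (-0.44 ± 0.19, unadjusted p = 0.0410). The dicarboxylate carrier Slc25a10 read 2.2 and 2.11 FPKM with iBP, 1.04 and 0.499 in stimulated and 1.6 and 1.79 in unstimulated libraries, and the ornithine carrier Slc25a15 read 1.74 and 1.19 FPKM with iBP, 0.462 and 0.114 in stimulated and 0.0483 and 0.620 in unstimulated libraries. Both were higher with iBP than in stimulated libraries, by 0.85 ± 0.34 and 0.94 ± 0.40 (unadjusted p = 0.0304 and 0.0389), at levels close to the threshold, where Slc25a15 was a member only through the iBP libraries. Slc25a38, a glycine carrier needed for heme synthesis and known from erythroid cells, read 26.9 and 20.2 FPKM with iBP, 35.8 and 29.4 in stimulated and 17.2 and 28.1 in unstimulated libraries. Over the 30 members the medians were -0.033, -0.025 and 0.055 for stimulated against unstimulated, iBP against stimulated and iBP against unstimulated.

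Carriers of nucleotide sugars supply the Golgi and the endoplasmic reticulum with the donors for glycosylation. Slc35a4, Slc35d1 and Slc35b1 were the most abundant, spanning 27.1 to 33.2 FPKM, 21.7 to 36.5 FPKM and 13.7 to 19.6 FPKM. Slc35d1, which carries UDP-glucuronic acid and UDP-N-acetylgalactosamine, read 21.7 and 24.6 FPKM in stimulated libraries and 29.3 and 36.5 in unstimulated ones (-0.48 ± 0.18, unadjusted p = 0.0191). On the other side were Slc35c1, the GDP-fucose transporter, at 6.21 and 4.94 FPKM with iBP, 8.14 and 10.9 in stimulated and 3.83 and 6.74 in unstimulated libraries, and its relative Slc35c2, at 8.1 and 11.3 FPKM with iBP, 17.8 and 14.2 in stimulated and 3.9 and 12 in unstimulated libraries. Stimulated libraries were the highest for both genes, by 0.77 ± 0.29 and 1.08 ± 0.38 over unstimulated (unadjusted p = 0.0231 and 0.0145). Against stimulated, the iBP libraries differed by -0.67 ± 0.29 and -0.68 ± 0.38 (unadjusted p = 0.0423 and 0.0972). Slc37a1, a glucose-6-phosphate and phosphate exchanger, read 9.18 and 10.5 FPKM with iBP, 11.8 and 9.52 in stimulated and 3.44 and 8.09 in unstimulated libraries (0.87 ± 0.32 for stimulated against unstimulated, unadjusted p = 0.0184). The difference of Slc35c1, Slc35c2 and Slc37a1 leans on unstimulated replicate 1: without it they were 0.43, 0.37 and 0.35. Without unstimulated replicate 2, Slc35c2 and Slc37a1 reached 1.79 and 1.38 (adjusted p = 0.0160 and 0.0449). Slc35b4, a carrier of UDP-xylose and UDP-N-acetylglucosamine, read 13.1 and 10.002 FPKM with iBP and 5.3 and 10.6 in stimulated libraries, and Slc37a4, the glucose-6-phosphate transporter of the endoplasmic reticulum, read 4.99 and 9.65 FPKM with iBP and 4.9 and 2.99 in stimulated libraries. Neither difference, 0.54 ± 0.30 and 0.72 ± 0.33, had an unadjusted p under 0.05.

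Among carriers of nucleosides and vitamins, Slc29a1 stood apart in level. It encodes ENT1, the equilibrative transporter that takes up adenosine and other nucleosides, and read 104 and 82.2 FPKM with iBP, 108 and 116 in stimulated and 112 and 109 in unstimulated libraries. The iBP libraries were below the other 4, with differences of -0.28 ± 0.14 from stimulated (unadjusted p = 0.0670) and -0.26 ± 0.14 from unstimulated (0.0886). Slc28a2, a sodium-coupled purine nucleoside transporter, spanned 20.2 to 33.8 FPKM with overlap throughout. Slc19a1, the reduced folate carrier, read 10.7 and 13.6 FPKM with iBP, 13.6 and 16.3 in stimulated and 8.86 and 13.4 in unstimulated libraries. Slc46a3, a lysosomal carrier, showed the clearest single-group pattern of the class: 2.87 and 1.48 FPKM with iBP, 5.89 and 5.59 in stimulated and 2.28 and 2.25 in unstimulated libraries. Its stimulated libraries were above the other 4, by 1.04 ± 0.32 over unstimulated (unadjusted p = 0.00698, adjusted p = 0.191), and the iBP libraries differed from them by -1.12 ± 0.32 (unadjusted p = 0.00453, adjusted p = 0.998). Both differences use the same 2 stimulated libraries, so they are not independent. Slc19a2, a thiamine transporter, read 1.21 and 2.09 FPKM in stimulated libraries and 6.7 and 2.27 in unstimulated ones, and its difference of -0.94 ± 0.41 came mostly from unstimulated replicate 1. Without that library it was -0.32.

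Metal carriers were led by Slc39a7, which encodes ZIP7, a zinc transporter that releases zinc from the endoplasmic reticulum. It read 74.6 and 68.5 FPKM with iBP, 81.5 and 95 in stimulated and 54.9 and 78.2 in unstimulated libraries, a difference of 0.42 ± 0.17 for stimulated against unstimulated (unadjusted p = 0.0306), and 0.17 without unstimulated replicate 1. As much as 80.7% of its exonic bases are shared with the read-through gene model Gm20427 on the same strand, so its value may include reads of that model. Slc39a10, a plasma membrane zinc importer known from lymphocytes, read 16.2 and 14.9 FPKM with iBP, 13.9 and 10.4 in stimulated and 7.99 and 10.7 in unstimulated libraries. The 3 groups ordered with iBP at the top and unstimulated at the bottom, although the stimulated and unstimulated libraries overlapped, and the iBP difference from unstimulated was 0.69 ± 0.23 (unadjusted p = 0.0108, adjusted p = 0.204). Slc39a1, another plasma membrane zinc importer, ran the other way: 1.61 and 1.82 FPKM with iBP, 3.64 and 2.69 in stimulated and 4.5 and 4.89 in unstimulated libraries. None of its groups overlapped, and iBP differed from unstimulated by -1.07 ± 0.30 (unadjusted p = 0.00424, adjusted p = 0.126) and from stimulated by -0.61 ± 0.30 (unadjusted p = 0.0667). Slc39a9 read 5.36 and 4.11 FPKM in stimulated libraries and 8.06 and 7.65 in unstimulated ones (-0.64 ± 0.25, unadjusted p = 0.0289). Slc30a4, a zinc exporter, had the largest difference of any member in stimulated against unstimulated libraries at 1.25 ± 0.41 (unadjusted p = 0.0106), with 1.77 and 2.93 FPKM in stimulated and 0.209 and 0.588 in unstimulated libraries. Slc41a1, a magnesium carrier, spanned 8.87 to 17 FPKM, and Slc11a2, the proton-coupled iron importer DMT1, spanned 3.72 to 6.57 FPKM. In all, 7 of 22 metal carriers were positive in iBP against stimulated libraries, with a median of -0.11, while 44.2% of all genes tested were positive with a median of -0.035. The count was 11 of 22 in stimulated against unstimulated and 9 of 22 in iBP against unstimulated, with 49.7% and 45.6% of all genes positive.

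Carriers of inorganic ions and pH, and the genes named after them, showed small differences. Slc9a3r1, the most abundant of the group, encodes the scaffold protein NHERF1 and read 123 and 109 FPKM with iBP, 120.1 and 124 in stimulated and 129 and 142 in unstimulated libraries. Slc20a1, a sodium-phosphate cotransporter, spanned 23.5 to 32 FPKM, and the adaptor gene Slc4a1ap 12.2 to 15 FPKM. Slc4a7, a sodium bicarbonate cotransporter, spanned 7.41 to 9.65 FPKM. Slc12a2, the sodium-potassium-chloride importer NKCC1, read 0.765 and 1.58 FPKM with iBP, 0.976 and 1.45 in stimulated and 2.46 and 1.87 in unstimulated libraries, and every unstimulated library was above the other 4 (-0.52 ± 0.36 for stimulated against unstimulated, unadjusted p = 0.178). No member of the class had an unadjusted p under 0.05 in iBP against stimulated, and its median there was -0.043.

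Of the carriers of lipids, choline and organic ions, Slc44a2, a choline transporter-like protein gene, was the most abundant at 60.5 and 59.4 FPKM with iBP, 57.1 and 64.3 in stimulated and 44 and 59.7 in unstimulated libraries. Slc22a5 encodes OCTN2, the carnitine transporter that supplies fatty acid oxidation, and read 17 and 14.8 FPKM with iBP, 9.4 and 15.4 in stimulated and 7.1 and 10.9 in unstimulated libraries. The iBP libraries lay above the unstimulated ones with no overlap (0.78 ± 0.27, unadjusted p = 0.0137, adjusted p = 0.233, and 0.50 without unstimulated replicate 1), while stimulated libraries overlapped both groups. Slc10a3, an orphan relative of the bile acid transporters, read 11.5 and 15.5 FPKM with iBP, 16.3 and 17.5 in stimulated and 18.8 and 19.2 in unstimulated libraries, lowest with iBP (-0.48 ± 0.20 against unstimulated, unadjusted p = 0.0337). In iBP against unstimulated libraries 10 of the 12 members were positive, with a median of 0.23, while 45.6% of all genes tested were positive with a median of -0.033. The count was 7 of 12 in stimulated against unstimulated and 7 of 12 in iBP against stimulated, with 49.7% and 44.2% of all genes positive. The 10 include Slc22a2, a member only through the iBP libraries, so the rule itself favoured its positive sign.

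Counted over all members, the comparisons stayed near the background of all genes. In stimulated against unstimulated libraries limma called 0 of 160 members at an adjusted p under 0.05, where 1.29% of all genes tested were called (0.968% higher and 0.326% lower). At an unadjusted p under 0.05, 21 members differed (13.1%, against 10.8%): 13 members were higher (8.12%, against 5.88% of all genes) and 8 lower (5%, against 4.93%). The libraries did not overlap for 31 members that were higher (19.4%, against 18.7%) and 26 that were lower (16.2%, against 19.1%). The median difference was -0.0054 for members, and 3 members (1.88%, against 2.47% of all genes) differed by 1 or more on the log2 scale.

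With iBP against stimulated, limma called 0 of 160 members, where 0.00958% of all genes were called. At an unadjusted p under 0.05, 9 members differed (5.62%, against 4.77%): 4 members were higher (2.5%, against 1.46%) and 5 lower (3.12%, against 3.32%). Without overlap between libraries, 18 members were higher (11.2%, against 13.6%) and 37 lower (23.1%, against 21%). Slc25a15 and Slc22a2, members only through the iBP libraries, are among these 18, and Slc25a15 is among the 4 above. The median was -0.053 for members and -0.035 for all genes, and for members the half-width of the 95% interval was a median of 0.66. A difference smaller than its own half-width misses even an unadjusted p of 0.05. Larger ones, such as those of Slc2a8 and Slc46a3, also missed the adjusted threshold. In iBP against unstimulated, beside the call of Slc16a3, 8 members were higher (5%, against 5.22%) and 10 lower (6.25%, against 7.02%) at an unadjusted p under 0.05, 18 in all (11.2%, against 12.2%). Without overlap, 30 members were higher (18.8%, against 18.1%) and 36 lower (22.5%, against 23.9%). Slc25a15 and Slc22a2 are again among the 30.

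**Figure D4:**
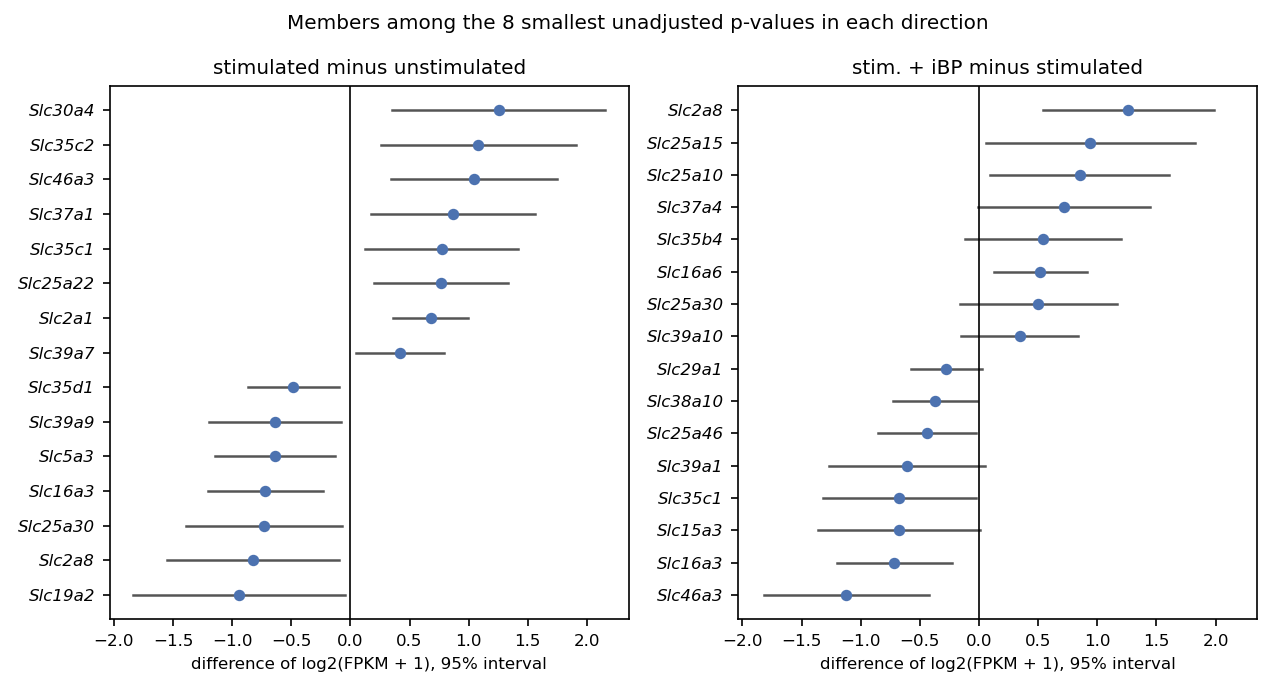
Differences of log2(FPKM + 1) with 95% intervals from limma for members among the 8 with the smallest unadjusted p in each direction, for stimulated minus unstimulated (left) and stimulated with iBP minus stimulated (right). The members were picked for these values, and none of the differences shown has an adjusted p under 0.05.

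The members varied most where they were scarce. For the 52 members with a mean of at least 10 FPKM, the highest library was a median of 1.49 times the lowest, and for the 108 below that level 2.56 times. Unstimulated replicate 1 was the lowest of the 6 libraries for 49 members and unstimulated replicate 2 the highest for 44, while the other 4 libraries were lowest for 19 to 28 and highest for 20 to 29. Among members of at least 10 FPKM, replicates differed on the log2 scale by a median of 0.20 with iBP, 0.19 in stimulated and 0.29 in unstimulated libraries.

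Genes that work with solute carriers were taken from 2 lists. Of 24 tested partners and transporters outside the Slc nomenclature, 1 rose and 2 fell in stimulated against unstimulated libraries, 2 rose and 2 fell in iBP against unstimulated, and 0 passed in iBP against stimulated. Of all genes tested, 0.968% were called higher and 0.326% lower in the first of these comparisons, and 1.03% and 0.728% in the second. Embigin (Emb), an ancillary subunit of monocarboxylate transporters, fell: it read 20.3 and 21 FPKM with iBP, 20.9 and 18.1 in stimulated and 35.3 and 36 in unstimulated libraries (-0.84 ± 0.16 for stimulated, adjusted p = 0.0303, and -0.76 ± 0.16 for iBP, 0.0421, against unstimulated). Basigin (Bsg), the subunit that brings MCT1 and MCT4 to the surface, read 120.4 and 114 FPKM with iBP, 137 and 126 in stimulated and 142 and 137 in unstimulated libraries and did not pass. The ferritin heavy chain gene Fth1, which stores iron, also fell (-0.50 ± 0.10, adjusted p = 0.0319, and -0.46 ± 0.10, 0.0388). Mfsd2a, a lysophosphatidylcholine transporter, rose in both (1.74 ± 0.27 and 2.04 ± 0.27, adjusted p = 0.00632 and 0.00224).

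Of 28 tested nutrient sensors and regulators of transporter genes, 2 rose with stimulation, with and without iBP, and 0 fell, where 1.03% (with iBP) and 0.968% (without) of all genes tested were called higher. Hif1a, the hypoxia-inducible factor subunit that activates glycolytic genes, read 304 and 327 FPKM with iBP, 301 and 303 in stimulated and 161 and 162 in unstimulated libraries (0.90 ± 0.11 for stimulated against unstimulated, adjusted p = 0.00128). Myc, which drives amino acid and glucose transporter genes in activated T cells, read 437 and 423 FPKM with iBP, 389 and 459 in stimulated and 206 and 231 in unstimulated libraries (0.95 ± 0.12, adjusted p = 0.00170). Atf4, the amino acid response factor, read 188 and 175 FPKM with iBP, 216 and 209 in stimulated and 149 and 197 in unstimulated libraries and did not pass (0.31 ± 0.14, adjusted p = 0.454). Neither Hif1a nor Myc differed between iBP and stimulated libraries beyond the test (0.062 ± 0.11 and 0.024 ± 0.12).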

How the data were processed

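The authors deposited FPKM values for 6 libraries in 1 table. Per the submitters' processing notes the tools were HISAT2 2.2.1 and StringTie 2.1.1 and the build mm10. The annotation, read filters and strand were not given in the sources used here. Without read depth, which is unknown, values carry no counting error. Per the labels' protocols, oligo-dT priming and PCR amplification made the cDNA.

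Values were analysed as log2(FPKM + 1). Genes reaching FPKM 1 in 2 or more libraries, 10436 in all, entered limma 3.58.1 in R 4.3.3 (3 groups in 1 fit, moderated variances with a trend with mean level, two-sided), with Benjamini-Hochberg adjustment over all of them. An adjusted p under 0.05 passes. Whether libraries of a group come from separate animals is not in the labels: p-values then measure only spread among these samples, possibly technical. The test was also run on simulated data.

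Members, lists and role classes were chosen with earlier results of these data known. Role classes were assigned by family number, so members that are not transporters are counted in the class of their family. Some genes that the rule picks are not reported here. Named members are those that passed, the 8 smallest unadjusted p-values in each direction of 2 comparisons, a fixed set of T-cell transporters and the 3 most abundant of each class. Amounts of overlap come from GENCODE M21 (GRCm38) by symbol, in which 160 of 160 members were found and 47 share exonic bases with another gene. Promoters were matched by symbol, with the start listed first for each gene, which need not be the most upstream one. Plots used matplotlib 3.10.9 (Python 3.11.15). Alternatives were another pseudocount, other filters, TPM, median-of-ratios and quantile scaling, no variance trend, robust moderation, a replicate block, 2 groups in the fit, and leaving out each library.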

Additional observations from a re-analysis of the deposited data

How the results depend on the processing

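The number of members past the test in stimulated against unstimulated libraries was 0, and 1 with a minimum FPKM of 5, after rescaling to TPM, after quantile normalization or with robust variance moderation, each time Slc2a1. When single libraries were left out it was 0 to 2. It was 0 in iBP against stimulated under all 16 alternatives. In iBP against unstimulated it was 1 (Slc16a3). It became 0 without the filter on low values or without the variance trend, 2 (with Slc2a1) with a minimum FPKM of 5, TPM, quantile normalization or robust moderation, and 0 to 1 when single libraries were left out. The cause was not tested. With the replicate number as a replicate block the counts were 0, 0 and 1 in these 3 comparisons. Deviations of same-numbered libraries correlated at -0.0462 to -0.0118 across genes, so no deviation shared by number was seen. With 2 libraries a group this cannot show whether equal numbers mark a shared animal or day, and the labels do not say. Scaling moved the median of all genes by less than 0.1 (log2). Of 2610 values of named members under alternatives, 2488 kept their direction and side of the threshold, 108 changed sign without being called, 11 crossed to passing and 3 (Slc16a3) lost the call. Read depth is unknown, and members under 10 FPKM varied most between libraries.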
